A study of Mus musculus with 16 samples.

Results

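Matrix metalloproteases, the related sheddases ADAM10 and ADAM17, the plasminogen activators and the TIMP inhibitors were followed across the 4 groups of a mouse kidney study. The set holds 10 genes of the 40472 in the deposited table, found by matching their symbols to Ensembl IDs. Of these 7 encode proteases (Mmp2, Mmp7, Mmp14, Adam10, Adam17, Plat and Plau) and 3 encode inhibitors (Timp1, Timp2 and Timp3). The libraries came from kidneys of male C57BL/6 mice aged 12 weeks, with 4 libraries in each group. IRP mice underwent ischemia reperfusion, in which the kidney's blood flow is stopped and then restored, and received PJ34, a small-molecule inhibitor of PARP enzymes. IRV mice underwent the same injury and received vehicle. NP mice had normal, uninjured kidneys and received PJ34, and NV mice had normal kidneys and received vehicle. No genetic change is given for any group. By the series' design text the groups were set up to examine the inhibitor's long-term effect. The labels give neither the day of collection nor whether replicates are different animals; p-values therefore reflect only how much these libraries vary, which may be technical.

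Matrix metalloproteases are zinc enzymes that cut collagens, laminins and other proteins of the extracellular matrix, and TIMPs block them by binding the active site. Most are made as inactive proenzymes. The membrane protease MMP14, together with TIMP2, activates pro-MMP2 at the cell surface. ADAM10 and ADAM17 release growth factors, cytokines and receptors from the membrane and are inhibited by TIMP3. The plasminogen activators tPA (Plat) and uPA (Plau) turn plasminogen into plasmin, which dissolves fibrin and activates some metalloproteases. In the kidney these systems are known for their part in matrix turnover and scarring after tubular injury.

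Totals fell into 2 depth sets. Those of IRP replicates 1 to 4 and of IRV replicates 3 and 4, called deep here, were 4963638 to 6169748 counts. The other 10 libraries (IRV replicates 1 and 2, NP and NV), called shallow, totalled 973812 to 1659983. Olfactory, vomeronasal, taste and trace-amine receptor genes summed to 236 to 493 CPM (counts scaled to a common library size) in deep libraries and to 6053 to 10598 CPM in shallow ones, so the sets differed in make-up as well as depth. In IRP against NP, depth and injury cannot be told apart except through the IRV libraries. CPM values use TMM-scaled library sizes. A difference passed the threshold at a Benjamini-Hochberg adjusted p under 0.05 in edgeR's quasi-likelihood test over 13614 genes. Rises, falls and differences between groups are log2 fold changes with SE unless a ratio is named. Markers of proximal tubule, loop of Henle, collecting duct and podocytes were detected in every group, none of them at 0 in all 4 libraries of a group. The injured groups stood apart in tubular markers: the 8 proximal tubule markers summed to 3693 to 7252 CPM in IRP and 3547 to 5216 CPM in IRV libraries, against 8648 to 10839 CPM in NP and 8045 to 10058 CPM in NV libraries.

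The metalloproteases Mmp14 and Mmp2 and the inhibitor Timp2 were far higher in injured than in uninjured kidneys, with and without PJ34. Plat, Adam17 and Adam10 were higher by smaller amounts. Timp3, the most abundant member, was lower under TMM scaling of the tested genes but not when library totals alone set the scale. Nor was it called lower under TMM scaling without the filter on low counts, with the depth set as a covariate or within the shallow libraries. In IRV against NV, 6 of the 8 tested members were higher and 1 lower, where 15.9% of all tested genes were higher and 11.1% lower. In IRP against NP, 6 were again higher and 1 lower, where 19.6% of tested genes were higher and 24% lower. In a fit with the depth set as a covariate 5 members were higher in IRV than in NV, beside 7.93% of tested genes higher and 6.13% lower. In that fit 3 were higher in IRP than in NP, beside 2.52% higher and 0.786% lower, and no member was lower in either. Within the shallow libraries the same 5 members (Mmp14, Mmp2, Timp2, Plat and Adam17) were higher in IRV replicates 1 and 2 than in NV, beside 6.74% of genes higher and 7.53% lower. Mmp7 and Timp1 had too few counts for the test. Mmp2 and Mmp14 passed the filter on low counts only through the injured libraries, so these counts over the tested members are a description.

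**Figure D1:**
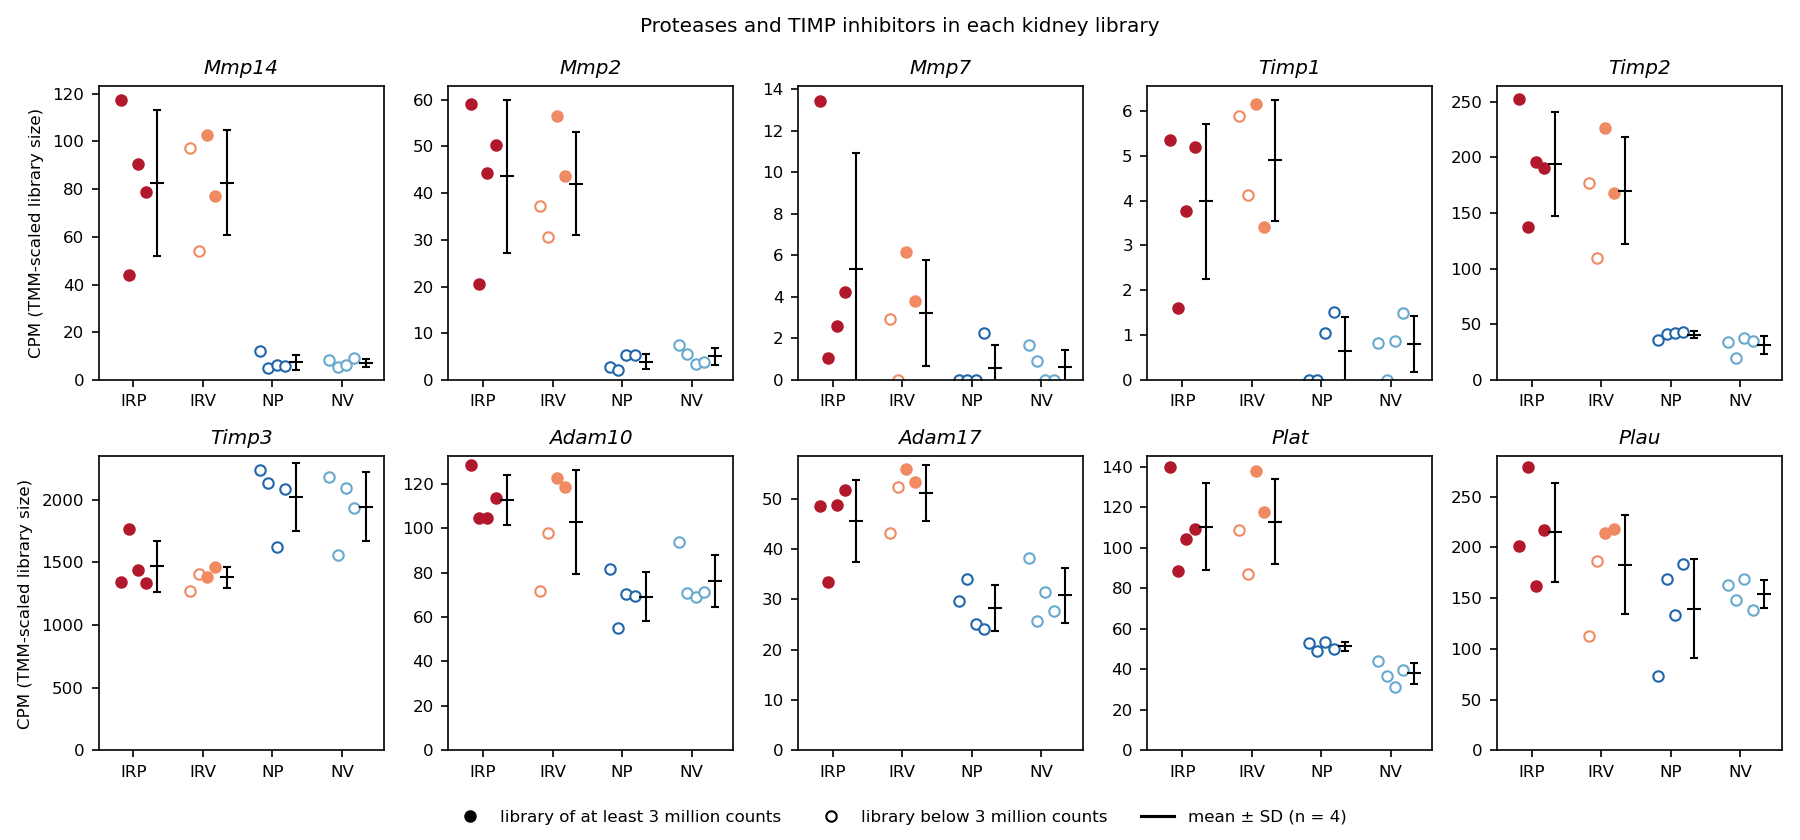
CPM of the 10 genes in each of the 16 libraries, in the order IRP, IRV, NP and NV, with filled points for deep and open points for shallow libraries; bars give the mean and SD (n = 4) and are cut off at 0. Mmp14, Mmp2 and Timp2 show no overlap between injured and uninjured libraries, while Plau overlaps throughout.

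Mmp14 encodes the membrane-type collagenase MT1-MMP. It had 118, 43.9, 90.4 and 78.7 CPM in IRP replicates 1 to 4 and 97.2, 54.1, 103 and 77.1 CPM in IRV replicates 1 to 4. It had 12.1, 5.07, 6.30 and 6.04 CPM in the NP libraries and 8.30, 5.53, 6.11 and 9.0 CPM in the NV libraries. Every injured library lay above every uninjured one; 14.9% of tested genes did so in IRV against NV and 20.9% in IRP against NP, and 11.5% and 20.3% lay wholly below. Mmp14 rose by 3.49 ± 0.35 in IRV against NV (log2 fold change ± SE; edgeR, adjusted p = 7.6e-06) and by 3.49 ± 0.35 in IRP against NP (adjusted p = 7.5e-06). The covariate for depth left differences of 3.34 ± 0.42 and 3.24 ± 0.51, which both passed. Within the shallow libraries IRV replicates 1 and 2 were higher than NV by 3.30 ± 0.30.

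Mmp2 encodes gelatinase A, which cuts denatured collagen and type IV collagen and is activated by MT1-MMP. It had 59.0, 20.6, 44.3 and 50.4 CPM in the IRP libraries and 37.3, 30.6, 56.5 and 43.7 CPM in the IRV libraries. It had 2.79, 2.17, 5.25 and 5.29 CPM in the NP libraries and 7.47, 5.53, 3.49 and 3.75 CPM in the NV libraries. As for Mmp14, injured and uninjured libraries did not overlap, and IRP replicate 2 was the lowest of the injured libraries. Mmp2 rose by 3.08 ± 0.38 in IRV against NV (edgeR, adjusted p = 3.5e-05) and by 3.48 ± 0.40 in IRP against NP (adjusted p = 1.8e-05). Both calls held with the depth set as a covariate, at 2.74 ± 0.47 and 2.94 ± 0.57, and within the shallow libraries IRV exceeded NV by 2.70 ± 0.36. The uninjured levels rest on 3 to 9 counts per library for Mmp2 and 6 to 13 for Mmp14.

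Mmp7 encodes matrilysin, a secreted metalloprotease of epithelial cells and a known target of Wnt signalling in kidney tubules. It had 113, 6, 18 and 27 counts in the IRP libraries and 3, 0, 44 and 30 in the IRV libraries. The NP libraries had 0, 0, 0 and 3 counts and the NV libraries 2, 1, 0 and 0. IRP replicate 1 alone held 113 of the 164 IRP counts, and the injured groups overlapped with the uninjured ones. Scaled for library size, the summed Mmp7 counts were 9.5 times as high in IRP as in NP (exact 95% interval 3.19 to 46.5; 164 against 3 counts) and 6.88 times as high in IRV as in NV (2.27 to 34.1; 77 against 3 counts). These intervals cover counting error only. Without IRP replicate 1 the first ratio was 4.27 (1.38 to 21.4), and all 3 NP counts lay in replicate 4; without NV replicate 1 the second rested on 1 NV count, at 15.4 (2.69 to 617). Within the shallow libraries IRV replicates 1 and 2 held 3 counts and the NV libraries 3, a ratio of 1.75 (0.235 to 13.1), so a difference was not detectable at that depth. In a fit of all 40472 genes without the filter on low counts, Mmp7 passed in IRP against NP (edgeR, adjusted p = 0.0088), where 14.3% of genes were higher and 27% lower. It did not pass in IRV against NV (adjusted p = 0.098), where 7.72% were higher and 1.48% lower. The median log2 fold change of all genes in that fit was -1.08 in IRP against NP and -0.32 in IRV against NV. With the filter these medians were -0.01 and -0.03. Mmp7 shares 123 exon bases with the antisense gene AV064505.

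The region upstream of the start was read for the members with a RefSeq window (GRCm38.p6), matched for 7 of the 10; Mmp2, Plat and Plau were not matched. The windows of the proteases Mmp14 and Mmp7 are shown because they differ in the motifs known from metalloprotease promoters. Capitals mark matches, in either orientation, to TGANTCA (bound by AP-1), AGGAAG (bound by PEA3 and other ETS factors) or CTTTGAT (bound by TCF); no 2 matches overlap. The Mmp14 window is chr14:54431348-54431597 on the + strand and the Mmp7 window chr9:7691840-7692089 on the + strand, each ending at the base before the RefSeq start.
Mmp14: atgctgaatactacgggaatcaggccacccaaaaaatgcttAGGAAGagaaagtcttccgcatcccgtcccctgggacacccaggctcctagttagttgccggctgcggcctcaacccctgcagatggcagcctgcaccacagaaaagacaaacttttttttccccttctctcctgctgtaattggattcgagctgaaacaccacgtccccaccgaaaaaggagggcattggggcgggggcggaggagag
Mmp7: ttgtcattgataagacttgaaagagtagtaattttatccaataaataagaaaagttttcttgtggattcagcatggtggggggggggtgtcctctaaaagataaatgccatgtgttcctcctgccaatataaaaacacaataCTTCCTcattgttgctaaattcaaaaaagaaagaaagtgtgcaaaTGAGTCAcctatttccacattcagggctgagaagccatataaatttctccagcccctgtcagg
Mmp7 holds an AP-1 match, TGAGTCA, 57 to 63 bases before the start, and an ETS match on the opposite strand 103 to 108 bases before it. Mmp14 holds 1 ETS match, 204 to 209 bases before its start, and no AP-1 or TCF match. The bases just after the Mmp14 window were not found in a GENCODE M21 transcript of the gene, whereas those after the Mmp7 window were. A match is a description of these letters, not evidence of binding.

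Timp2 encodes an inhibitor that also bridges MT1-MMP and pro-MMP2. It had 252, 138, 196 and 190.3 CPM in the IRP libraries and 177, 109, 226 and 168 CPM in the IRV libraries. It had 36.2, 41.3, 42.0 and 43.0 CPM in the NP libraries and 34, 19.3, 37.5 and 35.2 CPM in the NV libraries. The lowest injured library stood above the highest uninjured one by more than the range of either uninjured group. Timp2 rose by 2.42 ± 0.24 in IRV against NV (edgeR, adjusted p = 6.1e-06) and by 2.23 ± 0.23 in IRP against NP (adjusted p = 7.5e-06). Under the depth covariate the differences were 2.17 ± 0.26 and 1.79 ± 0.33, both past the threshold.

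Timp3 encodes the TIMP that stays bound to the matrix and inhibits ADAM17 and ADAM10 as well as metalloproteases. It had 1342, 1766, 1437 and 1333 CPM in the IRP libraries and 1267, 1407, 1381 and 1462 CPM in the IRV libraries. It had 2237, 2136, 1621 and 2083 CPM in the NP libraries and 2183, 1559, 2090.2 and 1933 CPM in the NV libraries. IRV and NV libraries did not overlap, while IRP replicate 2 lay above NP replicate 3. Timp3 fell by 0.50 ± 0.14 on the log2 scale in IRV against NV (edgeR, adjusted p = 0.017) and by 0.49 ± 0.14 in IRP against NP (adjusted p = 0.012). Given the depth covariate it differed by -0.53 ± 0.18 and -0.54 ± 0.25, with adjusted p of 0.064 and 0.28, so both calls were lost at much the same size. The direction depends on scaling: with library totals alone Timp3 differed by -0.0032 in IRV against NV, where the median of all tested genes was 0.49, and by 0.08 in IRP against NP, where the median was 0.57. Without NV replicate 1 the IRV difference had an adjusted p of 0.054. In the fit without the filter on low counts, also under TMM scaling, Timp3 was not called lower in either comparison. In IRP against NP its unadjusted p in that fit was not under 0.05. Timp3 shares 1733 exon bases with Syn3 on the opposite strand, and strand use in counting was not given in the sources used here. Syn3 had 13 to 34 counts per library, against 1291 to 11588 for Timp3.

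Timp1 encodes a secreted, inducible TIMP often used as a marker of scarring. It had 45, 9, 26 and 33 counts in the IRP libraries and 6, 7, 44 and 27 in the IRV libraries, against 0, 0, 1 and 2 in the NP libraries and 1, 0, 1 and 2 in the NV libraries. On the CPM scale the injured libraries ran from 1.61 to 6.16 and the uninjured ones from 0 to 1.51, with no overlap. Scaled for library size, the summed Timp1 counts were 6.55 times as high in IRP as in NP (2.18 to 32.2; 113 against 3 counts) and 5.63 times as high in IRV as in NV (2.12 to 21.1; 84 against 4 counts). Within the shallow libraries the ratio of IRV to NV was 5.70 (1.76 to 24.0; 13 against 4 counts). Without NP replicate 4 the IRP ratio rested on 1 NP count, at 14.1 (2.49 to 564). Without the filter on low counts Timp1 passed in IRV against NV (edgeR, adjusted p = 0.015), where 7.72% of genes were higher and 1.48% lower. It also passed in IRP against NP (adjusted p = 0.0042), where 14.3% were higher and 27% lower. The median log2 fold changes of all genes in that fit were -0.32 and -1.08, against -0.03 and -0.01 with the filter.

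The windows of Timp2 and Timp3 are shown because the 2 genes moved in opposite directions under TMM scaling of the tested genes. They are chr11:118355412-118355661 on the - strand and chr10:86300162-86300411 on the + strand (GRCm38.p6).
Timp2: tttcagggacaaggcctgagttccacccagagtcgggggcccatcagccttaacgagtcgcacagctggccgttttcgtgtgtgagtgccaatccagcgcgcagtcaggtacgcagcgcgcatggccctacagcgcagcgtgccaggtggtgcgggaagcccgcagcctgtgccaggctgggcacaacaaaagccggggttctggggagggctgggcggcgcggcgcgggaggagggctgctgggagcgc
Timp3: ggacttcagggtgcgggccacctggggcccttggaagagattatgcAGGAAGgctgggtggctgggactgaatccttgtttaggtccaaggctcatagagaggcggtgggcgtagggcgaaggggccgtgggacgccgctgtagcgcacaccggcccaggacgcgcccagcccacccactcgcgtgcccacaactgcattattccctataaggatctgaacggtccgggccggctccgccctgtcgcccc
Timp2 holds none of the 3 motifs, and Timp3 holds 1 ETS match, 199 to 204 bases before the start. Over the 7 members with windows, 6 hold an ETS match, beside 32.3% of all genes with windows, and 1 holds an AP-1 match, beside 7.82%. Only Mmp7 holds a TCF match, in a second RefSeq window of the gene that is not shown, beside 3.72% of genes. That window is chr9:7692091-7692340 on the + strand and begins just after the start that follows the shown Mmp7 window. The TCF match therefore lies downstream of that first start. The bases just after the second window were not found in a GENCODE M21 transcript of the gene. Of 32851 windows of the same length, 29.5% hold the ETS motif, 6.75% the AP-1 motif and 3.21% the TCF motif.

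Adam17 encodes TACE, the sheddase of TNF and of several EGF receptor ligands. It had 48.6, 33.5, 48.7 and 51.6 CPM in the IRP libraries and 43.2, 52.3, 56.0 and 53.2 CPM in the IRV libraries, against 29.7, 34.1, 25.2 and 24.2 CPM in the NP libraries and 38.2, 25.8, 31.4 and 27.7 CPM in the NV libraries. IRV and NV did not overlap, and IRP replicate 2 fell inside the NP range. Adam17 rose by 0.74 ± 0.16 in IRV against NV (edgeR, adjusted p = 0.0031) and by 0.66 ± 0.16 in IRP against NP (adjusted p = 0.0036). Adjusting for depth set gave differences of 0.66 ± 0.21 and 0.52 ± 0.27, with adjusted p of 0.044 and 0.33. Adam17 shares 311 exon bases with Iah1 on the opposite strand; Iah1 had 20 to 373 counts per library and Adam17 24 to 422.

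Adam10 encodes the main sheddase of Notch receptors and cadherins. It had 129, 105, 105 and 113 CPM in the IRP libraries and 71.7, 97.6, 123 and 119 CPM in the IRV libraries. It had 81.7, 55.1, 70.4 and 69.5 CPM in the NP libraries and 93.8, 70.9, 69.0 and 71.2 CPM in the NV libraries. IRP and NP did not overlap. IRV replicates 2, 3 and 4 stood above all NV libraries, while IRV replicate 1 lay inside the NV range. Adam10 rose by 0.68 ± 0.16 in IRP against NP (edgeR, adjusted p = 0.0024) and by 0.44 ± 0.16 in IRV against NV (adjusted p = 0.047). The IRV call held in 2 of the 8 fits that left out 1 library, those without IRV replicate 1 and without NV replicate 1, and adjusted p reached 0.23 without IRV replicate 3. Under the depth covariate Adam10 differed by 0.18 ± 0.18 in IRV against NV and 0.23 ± 0.23 in IRP against NP (adjusted p = 0.58 and 0.67), so neither call held.

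Plat encodes tissue plasminogen activator. It had 139.6, 88.6, 104 and 109 CPM in the IRP libraries and 109, 87.0, 138 and 118 CPM in the IRV libraries. It had 52.9, 49.3, 53.6 and 49.8 CPM in the NP libraries and 44.0, 36.9, 31.4 and 39.7 CPM in the NV libraries. Injured and uninjured libraries did not overlap, and the NP libraries all lay above the NV libraries. Plat rose by 1.57 ± 0.16 in IRV against NV (edgeR, adjusted p = 8.9e-06) and by 1.08 ± 0.16 in IRP against NP (adjusted p = 1e-04). The depth covariate gave 1.36 ± 0.19 and 0.72 ± 0.24, and the second lost its call (adjusted p = 0.10).

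Plau encodes urokinase, which tubule cells release into the urine. It had 201, 279, 162 and 217 CPM in the IRP libraries and 113, 187, 214 and 218 CPM in the IRV libraries, against 73.4, 169, 133 and 184 CPM in the NP libraries and 163, 148, 169 and 138 CPM in the NV libraries. All groups overlapped. Plau differed by 0.25 ± 0.24 in IRV against NV (95% interval -0.25 to 0.75; edgeR, adjusted p = 0.45) and by 0.59 ± 0.24 in IRP against NP (0.088 to 1.09; adjusted p = 0.054), so neither passed. The second lay close to the threshold and passed in DESeq2 (adjusted p = 0.038), where 18.6% of genes were higher and 24.1% lower. Adjusting for depth set gave -0.01 ± 0.27 and 0.11 ± 0.37.

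**Figure D2:**
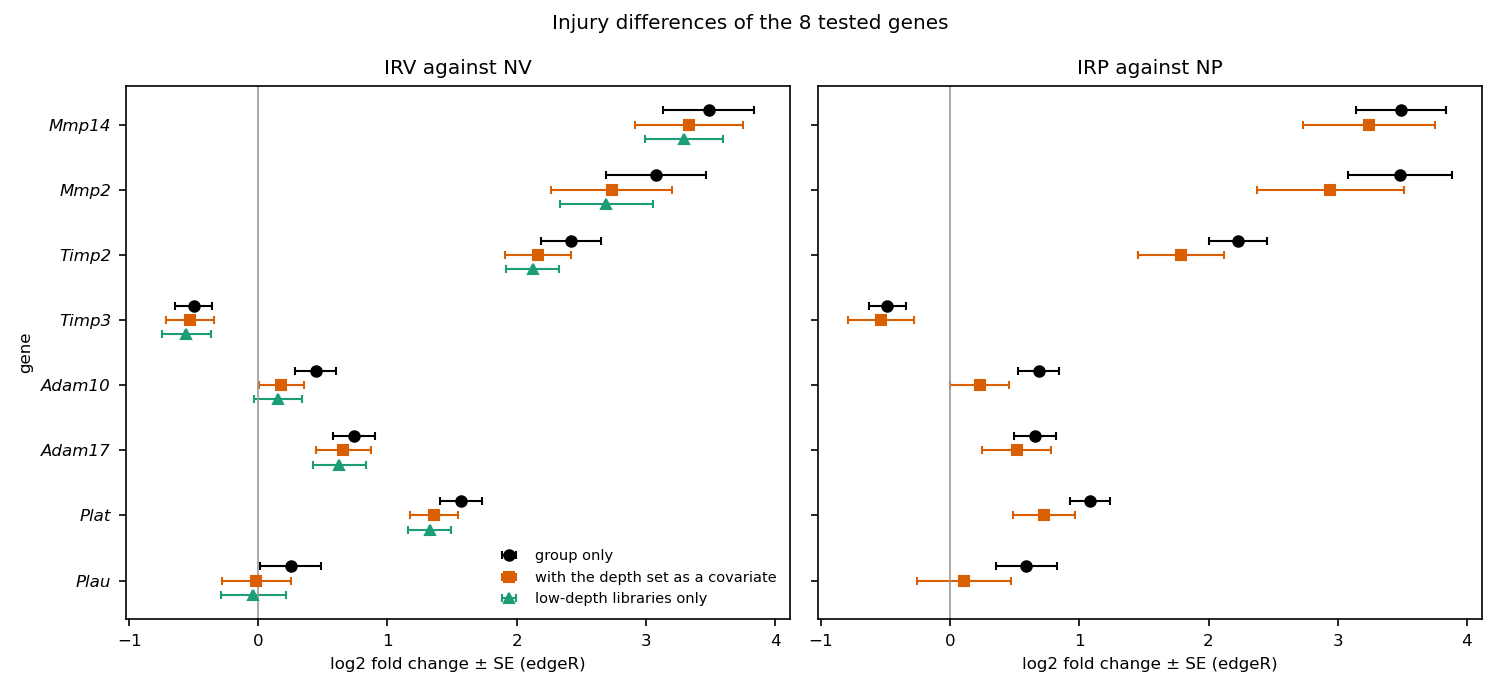
Log2 fold changes with SE of the 8 tested genes in IRV against NV (left) and IRP against NP (right), from edgeR with group only, with the depth set as a covariate and, on the left, within the shallow libraries. Mmp14, Mmp2 and Timp2 keep differences of 1.79 or more in each fit shown; Timp3 lies below 0 under the TMM scaling plotted, and reached 0.08 in IRP against NP when library totals alone were used.

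Per kilobase of exons, Timp3 was the most abundant of the 10 genes in every group, followed by Plau. Timp3 averaged 180.4 ± 24.9 CPM per kilobase in IRP, 169 ± 10.1 in IRV, 248 ± 33.5 in NP and 238 ± 33.8 in NV (SD, n = 4). Plau averaged 90.9 ± 20.6 CPM per kilobase in IRP, 77.3 ± 20.6 in IRV, 59.0 ± 20.7 in NP and 65.2 ± 5.85 in NV. Timp2 came next in the injured groups, at 49.8 ± 12.0 CPM per kilobase in IRP and 43.6 ± 12.3 in IRV. In the uninjured groups it came after Adam10, at 10.4 ± 0.780 in NP and 8.10 ± 2.12 in NV. From Adam10 downward, neighbours in the IRP order (Adam10, Plat, Mmp14, Mmp2, Adam17, Mmp7, Timp1) overlapped in range, as did the IRV order except between Mmp2 and Adam17. In NP and NV the last 4 places, taken by Mmp14, Mmp2, Timp1 and Mmp7, each overlapped with the next; above them Timp2 with Plat and Plat with Adam17 overlapped in NV, and no neighbours in NP. Plau and Timp2 overlapped in IRV.

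The make-up of the TIMP family shifted with injury. Timp3 took 76.7% ± 6.4 of the summed TIMP level per kilobase in IRP and 77.7% ± 5.2 in IRV, against 95.6% ± 1.0 in NP and 96.4% ± 0.78 in NV. Timp2 took 21.4% ± 5.6 in IRP and 19.8% ± 4.7 in IRV, against 4.10% ± 0.76 in NP and 3.23% ± 0.52 in NV. Timp1 took 1.95% ± 0.90 in IRP and 2.53% ± 0.68 in IRV, against 0.299% ± 0.35 in NP and 0.346% ± 0.28 in NV. The lowest injured share of Timp2 was 13.7%, in an IRV library, and the highest uninjured share 5.11%, in an NP library. The summed level itself was 235 ± 14.8 CPM per kilobase in IRP and 219 ± 14.3 in IRV, against 259 ± 32.7 in NP and 247 ± 36.2 in NV, and the ranges overlapped. The 3 metalloproteases summed to 31.8 ± 14.4 CPM per kilobase in IRP and 29.4 ± 8.84 in IRV, against 2.92 ± 1.33 in NP and 3.32 ± 1.35 in NV, with no overlap between injured and uninjured libraries.

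**Figure D3:**
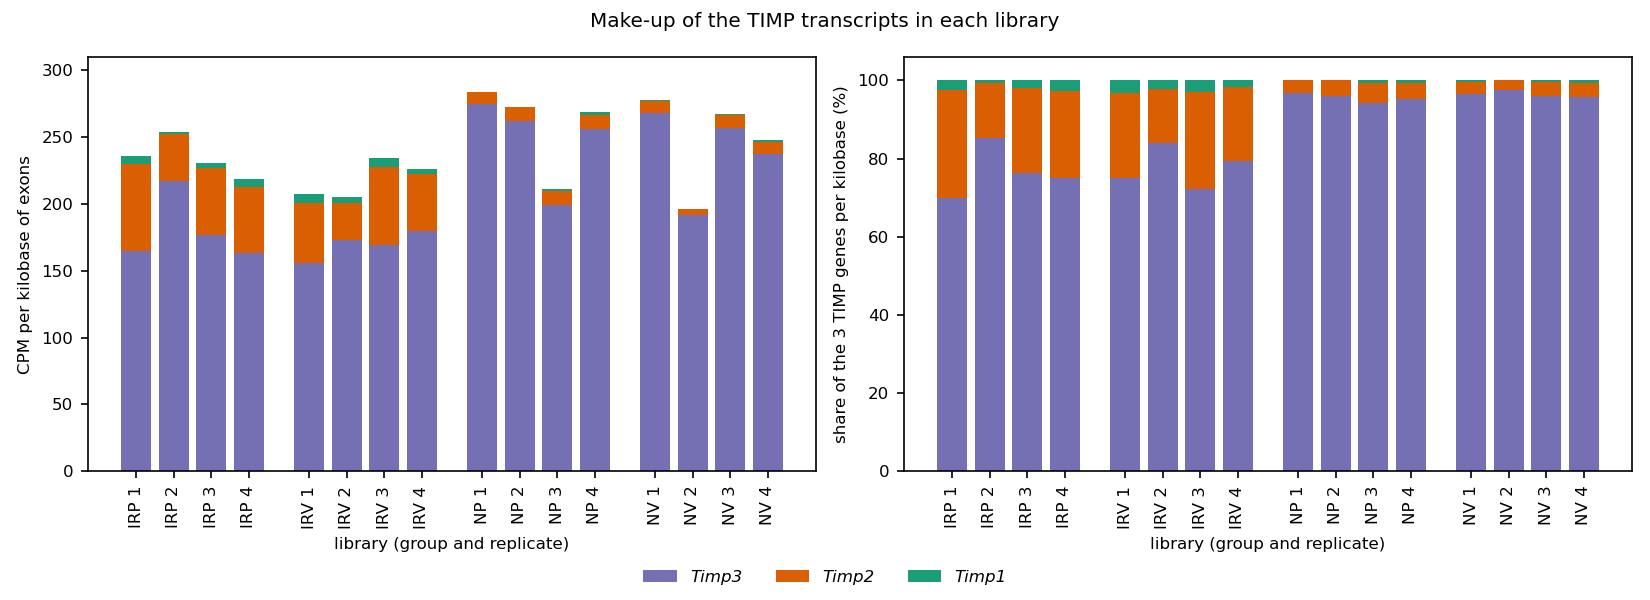
Timp3, Timp2 and Timp1 in each library as stacked CPM per kilobase of exons (left) and as percent of their sum (right). Timp2 takes 13.7% to 27.5% of the sum in IRP and IRV libraries and 2.53% to 5.11% in NP and NV libraries, while the summed level overlaps between them.

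Ratios of protease to inhibitor counts within a library do not depend on library scaling; they are given as log2 values of raw counts, without a test, and only their differences between groups are read. The summed counts of Mmp2, Mmp7 and Mmp14 over those of the 3 TIMPs averaged -3.76 ± 0.77 in IRP against -7.49 ± 0.50 in NP, and -3.64 ± 0.39 in IRV against -7.27 ± 0.37 in NV (SD, n = 4). The differences were 3.73 and 3.63, and libraries did not overlap in either. Mmp14 over Timp2 was -0.86, -1.01, -1.14 and -1.12 in the IRV libraries and -1.98, -1.73, -2.54 and -1.93 in the NV libraries, a difference of 1.01 with no overlap. In the IRP libraries it was -1.10, -1.65, -1.12 and -1.27, against -1.55, -2.94, -2.64 and -2.76 in the NP libraries, a difference of 1.19 in which NP replicate 1 lay inside the IRP range. Of the IRP and IRV libraries, IRP replicate 2 had the lowest ratio. Mmp2 over Timp2 was higher by 1.12 in IRP than in NP without overlap and by 0.56 in IRV than in NV with overlap.

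Sheddase counts over Timp3 counts were higher in injured than in uninjured libraries. Adam17 over Timp3 averaged -5.02 ± 0.47 in IRP against -6.14 ± 0.21 in NP and -4.75 ± 0.10 in IRV against -5.96 ± 0.13 in NV, differences of 1.12 and 1.21 with no overlap. Adam10 over Timp3 averaged -3.70 ± 0.30 in IRP against -4.86 ± 0.31 in NP and -3.77 ± 0.28 in IRV against -4.66 ± 0.21 in NV, differences of 1.16 and 0.89 with no overlap. In IRV, Adam10 over Timp3 was -4.14 and -3.84 in shallow replicates 1 and 2 and -3.49 and -3.62 in deep replicates 3 and 4. Adam17 over Timp3 was -4.86 and -4.74 in the shallow and -4.62 and -4.78 in the deep ones. The part of depth in these ratios was not tested in IRP against NP. Mmp7 over Timp1 rests on few counts and overlapped in all comparisons, differing by 0.27 in IRP against NP and by -0.77 in IRV against NV.

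**Figure D4:**
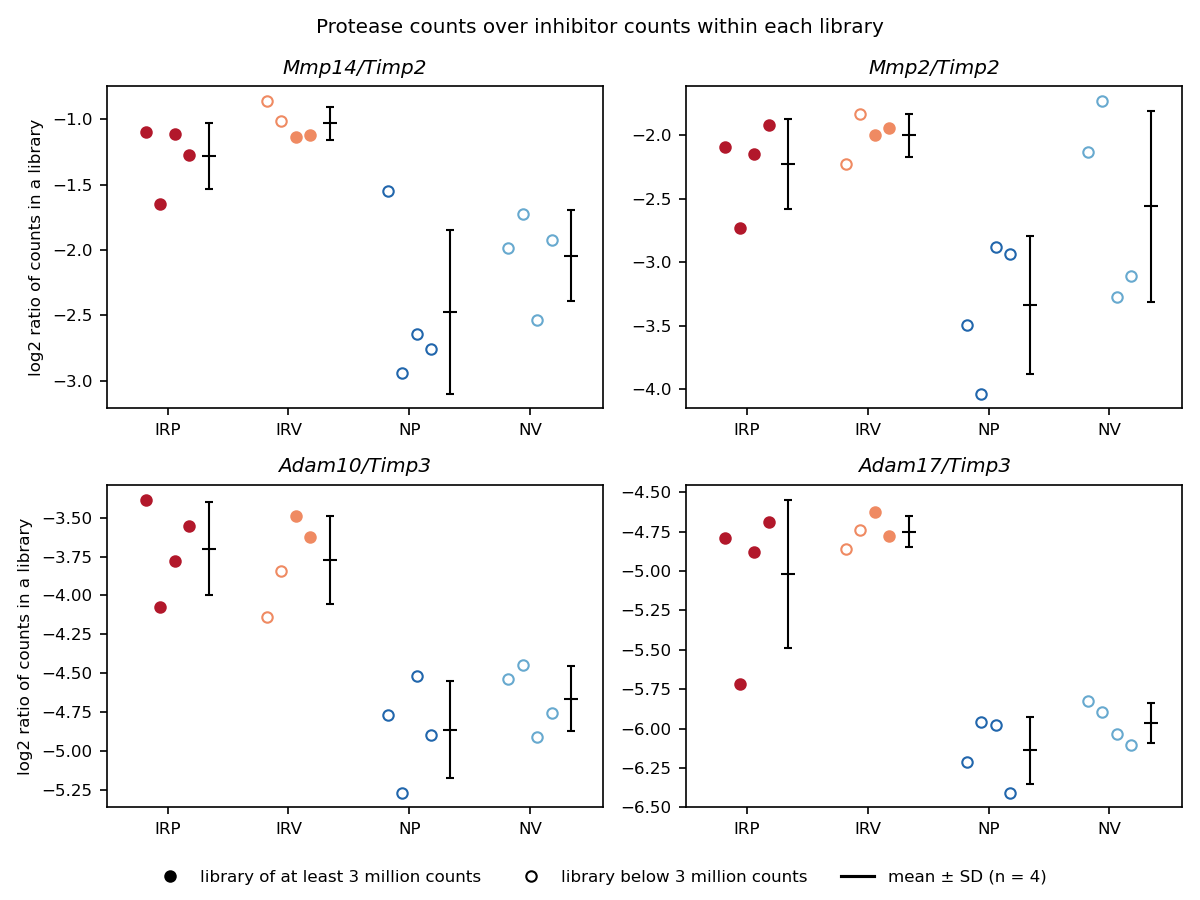
Log2 ratio of protease to inhibitor counts in each library, in the order IRP, IRV, NP and NV, with filled points for deep and open points for shallow libraries and bars for the mean and SD (n = 4); each panel has its own axis. Adam10 and Adam17 over Timp3 lie higher in all injured than in all uninjured libraries.

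PJ34 was compared with vehicle in injured and in uninjured kidneys. In IRP against IRV, none of the 8 tested members passed (edgeR), and none had an unadjusted p under 0.05; 0% of all tested genes passed in either direction. Over all genes, 1832 had an unadjusted p under 0.05, against 208 with the depth set as a covariate and 261 within the deep libraries. In DESeq2, 5 genes (0.0367%) were higher and 1277 (9.38%) lower, none of them a member. The count of 0 in edgeR turned on single libraries: without IRV replicate 3, 7 genes were higher and 1324 lower, and without IRV replicate 4, 10 and 1308. Both are deep libraries, so either fit leaves IRV mostly shallow beside IRP, which is all deep. The part of depth in these counts was not tested. All members overlapped between IRP and IRV, whereas 1.66% of tested genes lay wholly higher and 1.8% wholly lower. Mmp14 differed by -0.02 (95% interval -0.53 to 0.49), Mmp2 by 0.0043 (-0.53 to 0.53) and Timp2 by 0.17 (-0.25 to 0.59). Timp3 differed by 0.07 (-0.23 to 0.38), Plat by -0.06 (-0.36 to 0.24), Plau by 0.20 (-0.28 to 0.69), Adam17 by -0.20 (-0.50 to 0.10) and Adam10 by 0.10 (-0.22 to 0.41). These intervals bound the differences and do not show that the groups are alike. Within the deep libraries, where 2 IRV libraries remain, the members differed by -0.26 for Adam17 to 0.05 for Timp3 and none passed. The summed counts of Timp1 were 0.879 times as high in IRP as in IRV (exact 95% interval 0.657 to 1.18). Those of Mmp7 were 1.39 times as high (1.05 to 1.85), and 1.23 times (0.927 to 1.64) within the deep libraries. The direction rests on IRP replicate 1, without which the Mmp7 ratio was 0.626 (0.430 to 0.903).

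In NP against NV no tested member passed (edgeR), and 0% of all tested genes passed. An unadjusted p under 0.05 was found for 501 genes, and in DESeq2 3 genes (0.022%) were higher and 1 (0.00735%) lower. Plat was the member with the largest shift: it averaged 51.4 ± 2.16 CPM in NP and 38 ± 5.28 CPM in NV, a log2 difference of 0.43 (0.062 to 0.80; unadjusted p = 0.025, adjusted p = 1). Its NP and NV libraries did not overlap; 1.28% of tested genes lay wholly higher in NP and 1.17% wholly lower. The interaction, which sets IRP against NP beside IRV against NV, was -0.49 for Plat (-0.96 to -0.014; unadjusted p = 0.044, adjusted p = 0.42). For the other members the NP against NV differences ran from -0.40 for Mmp2 (-1.66 to 0.86) to 0.36 for Timp2 (-0.18 to 0.90). No member passed for the interaction, and over all genes 0 passed in edgeR. An unadjusted p under 0.05 was found for 1550 genes, against 428 with the depth set as a covariate. DESeq2 gave 1 higher (0.00735%) and 21 lower (0.154%). Without IRV replicate 3, a deep library, edgeR gave 5 higher and 412 lower for the interaction, none of them a member.

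Other genes of the same systems were counted from lists of the family and its partners. Each count is to be read beside the shares of all tested genes, 15.9% higher and 11.1% lower in IRV against NV and 19.6% higher and 24% lower in IRP against NP. Of the 20 other metalloprotease genes 6 were tested, and 4 rose and none fell in IRV against NV. Mmp11, Mmp15 and Mmp23 had only 5 to 13 counts over the 4 libraries of each uninjured group, so the filter favoured genes high after injury and the count is a description. Mmp11, stromelysin-3 of stromal cells, averaged 15.1 ± 2.41 CPM in IRV and 1.49 ± 0.827 CPM in NV, a rise of 3.35 ± 0.52. Mmp15, a second membrane-type metalloprotease, averaged 9.94 ± 2.26 CPM in IRV and 2.72 ± 1.25 CPM in NV, a rise of 1.90 ± 0.41. Mmp12, macrophage elastase, rose by 1.59 ± 0.38, and Mmp23 by 1.93 ± 0.55. In IRP against NP 4 rose and 1 fell. Mmp11 and Mmp23 also passed under the depth covariate in IRV against NV, and Mmp15, at 3.02 ± 0.70, in IRP against NP. The gelatinase Mmp9 and the stromelysin Mmp3 were below the filter: Mmp9 averaged 2.68 ± 1.19 CPM in IRP, 3.68 ± 1.76 in IRV, 1.57 ± 1.06 in NP and 0.844 ± 0.073 in NV, and Mmp3 4.13 ± 1.75 in IRP, 2.58 ± 0.590 in IRV, 1.27 ± 0.893 in NP and 1.25 ± 0.845 in NV. In IRV, Mmp9 had 5.89 and 4.12 CPM in shallow replicates 1 and 2 and 2.94 and 1.77 CPM in deep replicates 3 and 4.

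Among the ADAM and ADAMTS genes, 2 of 9 other tested ADAMs rose and 1 fell in IRV against NV, near the shares of all tested genes (15.9% and 11.1%). Adam12, a fibroblast-associated ADAM, rose by 1.78 ± 0.32 and Adam19 by 1.21 ± 0.43, and Adam22, which lacks protease activity, fell by 0.80 ± 0.28 on the log2 scale. Of these 9 ADAMs, 4 rose and 3 fell in IRP against NP. Of 12 tested ADAMTS proteases 4 rose and none fell in IRV against NV. Adamts1, which cuts proteoglycans, averaged 135.5 ± 40.2 CPM in IRV and 40.9 ± 2.53 CPM in NV, a rise of 1.74 ± 0.21. Adamts2, which trims procollagen, rose by 2.55 ± 0.40, Adamts7 by 1.54 ± 0.50 and Adamts10 by 1.13 ± 0.20. Over the 4 NV and the 4 NP libraries Adam19 had 28 and 27 counts, Adamts2 27 and 16, and Adamts7 16 and 13. These are fewer than for Mmp14, which passed the filter only through the injured libraries. The ADAM and ADAMTS counts are therefore a description. In IRP against NP 4 ADAMTS genes rose and 3 fell, where 19.6% of all tested genes were higher and 24% lower. Under the depth covariate 1 ADAM and 3 ADAMTS genes rose in IRV against NV, beside 7.93% of all tested genes higher and 6.13% lower. In IRP against NP 1 of each rose, beside 2.52% higher and 0.786% lower, and none fell in either comparison.

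Among other inhibitors, Serpine2, or protease nexin-1, rose by 2.32 ± 0.31 in IRV against NV and 1.76 ± 0.29 in IRP against NP; under the depth covariate it passed in IRV against NV (2.11 ± 0.38) and not in IRP against NP (1.40 ± 0.45, adjusted p = 0.093). Timp4 was below the filter, with 0.708 ± 0.24 CPM in IRP, 2.72 ± 3.55 in IRV, 3.86 ± 1.5 in NP and 2.08 ± 0.998 in NV. These levels rest on 1 to 8 counts per library. In IRV, Timp4 had 7.85 and 2.35 CPM in shallow replicates 1 and 2 and 0.56 and 0.13 CPM in deep replicates 3 and 4. Of 6 tested plasminogen partners 3 rose in IRV against NV (15.9% of all tested genes higher), and 3 rose and 1 fell in IRP against NP (19.6% higher and 24% lower). Under the depth covariate 3 rose in IRV against NV, beside 7.93% of all tested genes higher and 6.13% lower. In IRP against NP 2 rose in that fit, beside 2.52% higher and 0.786% lower, and none fell in either comparison. Anxa2 and S100a10, which together form a cell-surface receptor for plasminogen and tPA, rose by 2.53 ± 0.24 and 1.46 ± 0.19, and Lrp1, an uptake receptor for activator and inhibitor complexes, rose by 1.89 ± 0.27. Plaur, the urokinase receptor, differed by 1.13 ± 0.54 (adjusted p = 0.13) and in IRP against NP by 0.97 ± 0.55 (adjusted p = 0.16).

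Of 12 tested partners that activate or traffic these proteases, 2 rose and 2 fell in IRV against NV, near the shares of all tested genes (15.9% and 11.1%). Rhbdf2, an iRhom that carries ADAM17 to the surface, rose by 1.10 ± 0.32, and Tspan14, a tetraspanin partner of ADAM10, by 0.48 ± 0.17. Pcsk5, a proprotein convertase, fell by 0.59 ± 0.14 and Bsg, a metalloprotease inducer, by 0.45 ± 0.13 on the log2 scale. In IRP against NP 5 rose and 1 fell. With the depth covariate Bsg was the only one past the threshold in IRV against NV (-0.54 ± 0.16), and none passed in IRP against NP. In that fit 7.93% of all tested genes were higher and 6.13% lower in IRV against NV, and 2.52% and 0.786% in IRP against NP. Of 19 tested genes for shed proteins 10 rose and 3 fell in IRV against NV, and 10 rose and 4 fell in IRP against NP; the falls lie near the shares of all tested genes, 11.1% and 24%. Havcr1, which encodes KIM-1, rose by 4.34 ± 0.56 in IRV against NV, Cxcl16 by 1.56 ± 0.21, Il6ra by 1.60 ± 0.24 and Notch1 by 1.3 ± 0.21. Over the 4 NV and the 4 NP libraries Rhbdf2 had 27 and 24 counts and Havcr1 25 and 12. These too are fewer than for Mmp14, so the counts over both lists are a description. Under the depth covariate 6 of the genes for shed proteins rose and 3 fell in IRV against NV, beside 7.93% of all tested genes higher and 6.13% lower. In IRP against NP 2 rose and none fell, beside 2.52% higher and 0.786% lower. RNA levels of substrates do not measure shedding.

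Markers of fibroblasts, macrophages and injured tubules were mostly higher in the injured groups, while markers of other cells did not all move that way. In these bulk samples, more cells of a type and more RNA per cell cannot be told apart. Of all tested genes, 15.9% were higher and 11.1% lower in IRV against NV, and 19.6% higher and 24% lower in IRP against NP. All 10 fibroblast markers were tested, and 7 were higher in IRV than in NV and 8 in IRP than in NP. Their sum was 890 to 2149 CPM in IRP and 1176 to 1841 CPM in IRV libraries, against 318 to 403 CPM in NP and 215 to 373 CPM in NV libraries. All 10 macrophage markers were higher in both comparisons, summing to 439 to 1152 CPM in IRP and 574 to 992 CPM in IRV, against 80.8 to 154 CPM in NP and 82.9 to 118 CPM in NV. All 8 markers of injured tubules were higher in both, all 8 of proximal tubules lower, and all 6 of podocytes higher. Some markers had few counts over the 4 NV and the 4 NP libraries: C1qa 27 and 46, Ctss 45 and 30, and Havcr1 25 and 12. The filter on low counts can favour such markers when they are high after injury, so these marker counts are a description. Under the depth covariate the counts in IRP against NP were 7 fibroblast, 6 macrophage, 5 injured tubule and 1 podocyte marker higher and 1 proximal tubule marker lower. In that fit 2.52% of all tested genes were higher and 0.786% lower in IRP against NP. All IRV counts of these lists stayed as they were, beside 7.93% of tested genes higher and 6.13% lower. The endothelial list had 3 of 8 markers higher in IRV than in NV and 5 in IRP than in NP, and none with the depth set as a covariate. The 6 neutrophil markers summed to 4.84 to 11.9 CPM in IRP and 6.56 to 31.8 CPM in IRV, against 24.6 to 39.3 CPM in NP and 24.1 to 43.3 CPM in NV. In IRV the sums were 31.4 and 31.8 CPM in shallow replicates 1 and 2 and 10.6 and 6.56 CPM in deep replicates 3 and 4. Of the 3 tested, none passed in IRV against NV, and 1 was higher and 2 lower in IRP against NP. With the depth set as a covariate none passed, at median log2 fold changes of 0.037 and 0.0027. IRP replicate 2, the lowest IRP library for 7 of the 10 members, had the lowest IRP sums of fibroblast and macrophage markers and the highest of proximal tubule markers, 7252 CPM. Of 6 markers of fat, adrenal gland and muscle 2 were tested, both of fat cells. Plin1 was higher in IRV than in NV (2.17 ± 0.74), and Plin1 and Adipoq were higher in IRP than in NP (2.37 ± 0.70 and 1.71 ± 0.47). The 6 summed to 13.8 to 51.7 CPM in IRP and 16.4 to 28.2 CPM in IRV, against 8.69 to 17.9 CPM in NP and 9.13 to 17.2 CPM in NV. The highest sum was that of IRP replicate 1, which was the highest IRP library for 7 of the 10 members. The part of cell make-up in the members' differences was not tested.

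The tested genes whose levels followed a member most closely were found by the mean absolute difference of centred log2 CPM over the 16 libraries, among 10344 genes whose log2 CPM averaged 3 or more. For Mmp14 these were H2-Aa, H2-Eb1, Cd74, Mgp and H2-Ab1, with differences of 0.22 to 0.32. For Timp1 they were Fbn1, Lhfp, Litaf, Capg and Loxl1, at 0.30 to 0.35. For Mmp7 they were Jam2, Bmf, Coro1a, Ifi207 and Rab31, at 0.60 to 0.65, so none of these candidates followed Mmp7 as closely. Mmp7 and Timp1 had at most 3 counts in each uninjured library, and the part of counting noise in these distances was not tested. The 16 libraries share the contrast of injury and depth, and likeness here describes levels only.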

How the data were processed

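Poly(A)-selected kidney RNA was sequenced from 16 libraries. The authors' deposited table holds expected counts per gene, already whole numbers and not normalised; per the submitters' processing notes, FastQC 0.11.3, Trim Galore 0.6.6, Salmon 1.3.0, DESeq2 1.30.1 and build GRCm39 were used. Per the labels' protocols the kit was directional; the use of molecular identifiers or strand was not given in the sources used here. Intervals on summed counts therefore cover counting error only. Replicates of each group differed by more than sampling noise in all pairs; pairs across groups were not compared.

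Symbols were matched for 40276 of 40472 IDs, and exon lengths come from GENCODE M21 (an older build, so gene coordinates are not given). Genes were filtered with filterByExpr (minimum count 10) and tested with edgeR 4.0.16 in R 4.3.3, with TMM scaling, all libraries in 1 fit and group as the only term; p-values were adjusted over all 13614 genes at a threshold of 0.05. SE and 95% intervals follow from the F statistic. Ratios of single genes add 0.5 to both counts, and the ratio of summed counts adds nothing. Alternatives were DESeq2 1.42.0, limma-voom (limma 3.58.1), other scalings and filters, the depth set, a replicate block and each library left out. The steps were tested on simulated counts. All 10 members are described; of each other list up to 4 genes with the smallest p past the threshold in IRV against NV are named, plus Plaur, Mmp9, Mmp3 and Timp4 and, for Mmp7, Mmp14 and Timp1, the 5 most alike genes. Members, lists and tests were chosen with earlier results of these data known. Results for some genes of these lists, and ratios that use them, are not reported here.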

Additional observations from a re-analysis of the deposited data

Results flagged for a closer look

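Among 72 sets of 4 libraries examined (the members' levels and the ratios, per group), 5 held a library far from the other 3 by Dixon's criterion, which chance flags in about 1 of 20 sets. Mmp7 was 2.27 CPM in NP replicate 4 and 0 in the other NP libraries, a value that rests on 3 counts. Adam10 was 93.8 CPM in NV replicate 1, where the next NV library had 71.2 CPM; without it the IRV against NV difference of Adam10 was 0.56 (edgeR, adjusted p = 0.026). Adam17 was 33.5 CPM in IRP replicate 2, where the next IRP library had 48.6 CPM. The log2 ratio of Mmp7 to Timp1 counts was 1.32 in IRP replicate 1, where the next IRP library had -0.28. The log2 ratio of summed metalloproteases to summed TIMPs was -8.23 in NP replicate 2, where the next NP library had -7.29.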

How the results depend on the processing

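In IRV against NV and IRP against NP, Mmp14, Mmp2, Timp2 and Plat kept their direction under each alternative, and their calls under all but 1 (Plat in IRP against NP under the depth covariate). The members passing in IRP against NP numbered 3 under the depth covariate and 7 without it. Plau in IRV against NV was -0.015 under that covariate and -0.038 within the shallow libraries, and Timp3 in IRP against NP was 0.085 with library totals only. Within 1 depth set, run for IRV against NV and IRP against IRV, the ratio differences moved by less than 1 SD between replicates. The same held with 1 added in place of 0.5 in the ratios of single genes. Leaving out 1 of 4 libraries cannot move a difference by 1 SD, so those alternatives do not test the ratios. In IRP against NP no alternative for depth was run on the ratios. The cause of the changes in this paragraph was not tested.

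The PJ34 differences lie near 0, and several change sign with no call gained. In IRP against IRV, Mmp2, Adam10, Plau and Timp2 were -0.19, -0.097, -0.0091 and -0.020 under the depth covariate and -0.19, -0.098, -0.0085 and -0.021 within the deep libraries. Mmp2 was also -0.0073 with only the 2 groups fitted and -0.11 with limma-voom. Mmp14 was 0.089 and Plat 0.031 with library totals, and 0.10 and 0.056 without the filter. The interaction of Mmp14 was 0.0025 with DESeq2 size factors, 0.10 with library totals, 0.049 relative to their median, 0.12 without the filter and 0.054 with limma-voom. That of Adam17 was 0.0050 with library totals and 0.039 without the filter, and that of Timp3 was -0.012 under the depth covariate.

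Leaving out 1 library at a time gave IRP against IRV ranges of -0.18 to 0.23 for Mmp2, -0.24 to 0.19 for Mmp14, -0.019 to 0.15 for Adam10, -0.19 to 0.034 for Plat and -0.027 to 0.11 for Timp3. The NP against NV ranges were -0.35 to 0.15 for Mmp14, -0.22 to 0.0029 for Adam17, -0.30 to 0.073 for Plau and -0.032 to 0.15 for Timp3. The interaction ranges were -0.22 to 0.33 for Mmp14, -0.20 to 0.037 for Adam17 and -0.085 to 0.10 for Timp3.

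The replicate numbers did not pair the libraries: same-numbered deviations correlated at -0.13 to 0.26 in IRV and NV and at -0.01 to 0.11 in IRP and NP, and 2 and 1 of 4 libraries correlated best with their own number. With a replicate block, Adam10 in IRV against NV was 0.45 (edgeR, adjusted p = 0.051) and Plau in IRP against NP 0.63 (adjusted p = 0.029), so 6 and 8 members passed. Mmp2 in IRP against IRV was -0.037 and Mmp14 in NP against NV 0.014 with the block. Depth limits Mmp7 and Timp1, with 3 or 4 counts in each uninjured group.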
